A study of Mus musculus with 111 samples.

Results

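Adam22, Fermt3, Dpf1, Rbm4b, Prr15, AW822252 and Alpk2 are 7 of the 35973 genes, counted by symbol, in a set of single mouse 2-cell embryos in which the nuclear receptor gene Nr5a2 had been knocked down. They were picked because their RNA rose more with the knockdown in the first of 3 experiments than in the other 2. They were chosen by the differences between knockdown and control embryos in all 3 experiments, and those differences are given below as a description, without a test. All 7 passed the filter on low counts, which left 17110 genes.

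The embryos were of strain B6129F1. Oocytes at the germinal vesicle stage, the resting stage before meiosis resumes, received a set of siRNAs at 20 µM each with 150 ng per µl of a marker RNA, were held in arrest for 5 hours, matured for 12 hours and were fertilised in vitro. Knockdown embryos had siRNAs against Nr5a2 and the marker H2B-rsEGFP, and negative control embryos had the control injection with the marker H2B-EGFP, so the arms also differ in the marker. There were 24 control embryos in experiment 1, 7 in experiment 2 and 25 in experiment 3, and 16, 16 and 23 with the knockdown, each sequenced after SmartSeq2 amplification of polyadenylated RNA, which keeps no strand and no molecular identifiers.

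Depth ranged from 1.95 to 21.1 M estimated counts per embryo (M, mega), with a median of 4.74 M. Levels are normalised read counts in CPM, the usual scaling to a common library size. They are a share of each library, so the amount of RNA per embryo was not measured. Nr5a2 itself was at 123 ± 44.5 CPM (SD, n = 24) in control and 49.4 ± 17.9 CPM (n = 16) in knockdown embryos of experiment 1, at 117 ± 58.2 (n = 7) and 53.4 ± 22.5 (n = 16) in experiment 2, and at 94.3 ± 47.5 (n = 25) and 44.8 ± 19.0 (n = 23) in experiment 3. Its fitted log2 fold change was -1.31 (SE 0.21), -1.13 (SE 0.27) and -1.07 (SE 0.18), with adjusted p of 1.44e-05, 0.427 and 4.07e-04 by edgeR, so it fell in experiments 1 and 3 and had a like fold change that did not pass in experiment 2. No source used here says which embryos share parents, so p-values measure the spread between these embryos only.

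NR5A2 is a nuclear receptor that recognises an extended half-site without needing a partner, and it is active in early embryos, in the liver and in the pancreas. The mouse 2-cell stage is when the embryo's own genome is first transcribed on a large scale while RNA stored in the oocyte is being degraded. The 7 genes form no known pathway. ADAM22 is a membrane protein of the disintegrin and metalloprotease family that lacks protease activity and serves in neurons as a receptor for LGI1. FERMT3, or kindlin-3, activates integrins in blood cells. DPF1 is a zinc finger subunit of the neuronal BAF chromatin remodelling complex. RBM4B is an RNA-binding protein related to the splicing regulator RBM4. ALPK2 is an atypical kinase of the alpha-kinase family, PRR15 is a small proline-rich protein, and AW822252 is annotated as a transcribed pseudogene.

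In GENCODE M21 on GRCm38, Adam22 lies on the minus strand of chr5:8072352-8368160, Fermt3 on the minus strand of chr19:6998958-7019469, Dpf1 on the plus strand of chr7:29303951-29318243 and Rbm4b on the plus strand of chr19:4756497-4767065. Prr15 lies on the plus strand of chr6:54325835-54330201 and AW822252 on the minus strand of chrX:53695855-53716773. Fermt3 and Rbm4b share a chromosome but not a neighbourhood, and the other genes are each on a chromosome of their own.

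Promoter sequences from RefSeq (GRCm38.p6) were found for 6 of the 7 genes, Alpk2 being the one without an entry. The 250 bases before the RefSeq start are printed for Dpf1, Rbm4b and Prr15, because their most counted transcript starts within 40 bases of that start. Capitals mark CCAAT boxes (CCAAT or ATTGG), GC boxes (GGGCGG or CCGCCC) and the NR5A half-site (AAGGTCA or TGACCTT), in each case either strand. The windows are chr7:29303755-29304004, chr19:4756275-4756524 and chr6:54326651-54326900, all on the plus strand.
Dpf1: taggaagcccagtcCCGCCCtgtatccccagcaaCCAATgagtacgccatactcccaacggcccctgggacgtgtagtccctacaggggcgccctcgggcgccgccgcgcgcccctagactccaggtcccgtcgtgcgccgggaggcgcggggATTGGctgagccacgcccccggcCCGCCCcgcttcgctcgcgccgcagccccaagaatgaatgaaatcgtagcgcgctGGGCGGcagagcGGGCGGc
Rbm4b: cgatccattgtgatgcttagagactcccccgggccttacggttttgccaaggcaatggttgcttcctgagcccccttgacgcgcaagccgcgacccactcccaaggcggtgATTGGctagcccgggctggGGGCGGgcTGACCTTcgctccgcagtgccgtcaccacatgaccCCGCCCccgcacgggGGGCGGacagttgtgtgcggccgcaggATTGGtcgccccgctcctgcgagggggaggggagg
Prr15: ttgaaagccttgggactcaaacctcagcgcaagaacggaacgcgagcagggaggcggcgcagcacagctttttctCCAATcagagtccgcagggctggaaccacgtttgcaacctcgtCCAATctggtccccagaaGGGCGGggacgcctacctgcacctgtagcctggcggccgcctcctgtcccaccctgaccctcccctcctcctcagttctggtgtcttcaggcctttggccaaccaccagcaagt

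CCAAT boxes occurred in these 3 of the 6 promoters and in 33.8% of 32851 mouse promoters of the same length. GC boxes occurred in the same 3 and in AW822252, against 32.7% of all promoters. AAGGTCA, an NR5A half-site, was found in the Rbm4b window alone, on the minus strand with its first printed base at -112 from the start, and in 4.08% of all promoters. The other form, AAGGCCA, was in none of the 6 and in 5.24% of all promoters. TATAAA was likewise in none of the 6 and in 12.4% of all, and the E-box CACGTG was in AW822252 and in 6.02% of all. No searched motif overlapped another in the printed windows. A match is only a match of letters in these windows.

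Dpf1 showed the largest difference of the 7. In experiment 1 its lowest, median and highest levels were 3.72, 9.51 and 20.6 CPM in control embryos (mean 10.2 ± 4.58, SD, n = 24) and 15.6, 27.2 and 58.8 CPM in knockdown embryos (31.5 ± 13.8, n = 16). All 16 knockdown embryos lay above the control median and 13 lay above the highest control. In experiment 2 Dpf1 was near 4 CPM in both arms, with means of 4.32 ± 2.20 (n = 7) and 4.45 ± 2.55 (n = 16). In experiment 3 the means were 13.8 ± 7.06 (n = 25) and 19.3 ± 7.14 (n = 23), and no knockdown embryo exceeded the highest control. The fitted log2 fold changes were 1.62 (SE 0.21), 0.05 (SE 0.32) and 0.48 (SE 0.19) in experiments 1, 2 and 3.

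Fermt3 came next in experiment 1. Its control embryos ran from 7.80 to 39.0 CPM around a median of 18.0 (19.4 ± 7.85, SD, n = 24), and its knockdown embryos from 17.2 to 71.9 CPM around a median of 41.0 (43.3 ± 17.1, n = 16). The arms overlapped, with 15 of 16 knockdown embryos above the control median and 8 above the highest control. In experiment 2 the means were 5.77 ± 2.24 CPM (n = 7) and 8.36 ± 3.16 CPM (n = 16). In experiment 3 they were 30.0 ± 10.5 (n = 25) and 34.7 ± 7.13 (n = 23), so control embryos of experiment 3 already carried more Fermt3 than those of experiment 1. The log2 fold changes were 1.15 (SE 0.17), 0.53 (SE 0.26) and 0.21 (SE 0.15), in the order of the experiments.

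Prr15 was the gene whose arms lay in opposite order in different experiments. In experiment 1 control embryos ran from 12.4 to 61.7 CPM with a median of 21.1 (22.3 ± 10.4, SD, n = 24), and knockdown embryos from 19.5 to 108 CPM with a median of 37.3 (45.2 ± 26.2, n = 16). Only 3 knockdown embryos passed the highest control. In experiment 2 the control mean was 11.3 ± 4.32 CPM (n = 7) and the knockdown mean 6.92 ± 2.77 CPM (n = 16), with 11 of 16 knockdown embryos below the control median. In experiment 3 the means were 24.6 ± 9.18 (n = 25) and 30.5 ± 11.2 (n = 23). The log2 fold changes were 1.02 (SE 0.19), -0.70 (SE 0.27) and 0.31 (SE 0.17).

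Rbm4b had almost equal means in both arms of experiment 2. In knockdown embryos of experiment 1 it ran from 71.8 to 235 CPM around a median of 141 (144 ± 50.1, SD, n = 16), against 56.2 to 149 CPM around 78.8 in controls (81.8 ± 21.0, n = 24). Its means were 49.0 ± 11.3 (n = 7) and 49.9 ± 9.97 (n = 16) in experiment 2, and 96.6 ± 24.4 (n = 25) and 118 ± 28.9 (n = 23) in experiment 3. The log2 fold changes of Rbm4b were 0.82 (SE 0.12), 0.02 (SE 0.18) and 0.29 (SE 0.11), with 15 of 16, 5 of 16 and 21 of 23 knockdown embryos above the control median. Rbm4b and Rbm4 are close paralogues, so the split of reads between them is uncertain. Rbm4 itself changed by -0.35 on the log2 scale (SE 0.19) in experiment 1, with an adjusted p of 0.623 by edgeR.

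Adam22 ran from 42.5 to 147 CPM around a median of 81.8 in knockdown embryos of experiment 1 (83.0 ± 32.8, SD, n = 16) and from 25.5 to 84.2 CPM around 43.8 in controls (46.0 ± 14.3, n = 24). In experiment 2 its means were 14.7 ± 4.78 (n = 7) and 19.6 ± 9.30 CPM (n = 16), and in experiment 3 they were 45.9 ± 13.1 (n = 25) and 62.7 ± 17.5 (n = 23). The control means of experiments 1 and 3 lay within 0.0834 CPM of each other. The log2 fold changes were 0.85 (SE 0.16), 0.42 (SE 0.24) and 0.45 (SE 0.15), the smallest excess of experiment 1 over the mean of the others among the 7, at 0.42 (SE 0.21).

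The pseudogene AW822252 had the narrowest spread in experiment 1 on the log2 scale. Control embryos ran from 27.7 to 67.8 CPM with a median of 40.3 (41.6 ± 11.9, SD, n = 24), and knockdown embryos from 40.3 to 120 CPM with a median of 70.4 (71.4 ± 23.1, n = 16). All 16 knockdown embryos lay above the control median and 9 above the highest control. In experiment 2 the level was far lower in both arms, at 6.31 ± 2.27 (n = 7) and 7.04 ± 1.87 CPM (n = 16). In experiment 3 the means were 41.0 ± 10.2 (n = 25) and 52.2 ± 11.1 (n = 23). The log2 fold changes were 0.78 (SE 0.13), 0.16 (SE 0.19) and 0.35 (SE 0.12).

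Alpk2 varied most between embryos. In experiment 1 it ran from 10.0 to 65.0 CPM around a median of 17.7 in controls (24.6 ± 16.0, SD, n = 24) and from 11.0 to 124 CPM around 40.8 in knockdown embryos (50.8 ± 35.4, n = 16). In experiment 2 the means were 54.3 ± 41.4 (n = 7) and 57.7 ± 57.4 (n = 16), and in experiment 3 they were 44.1 ± 32.3 (n = 25) and 76.9 ± 82.7 (n = 23), with 1 knockdown embryo at 423 CPM. The control mean was thus lowest in experiment 1. The log2 fold changes of Alpk2 were 1.05 (SE 0.32), 0.09 (SE 0.46) and 0.80 (SE 0.29). In experiment 3 the log2 ratio of its mean CPM was 0.80 and lay between 0.47 and 0.92 when 1 embryo at a time was left out.

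**Figure D1:**
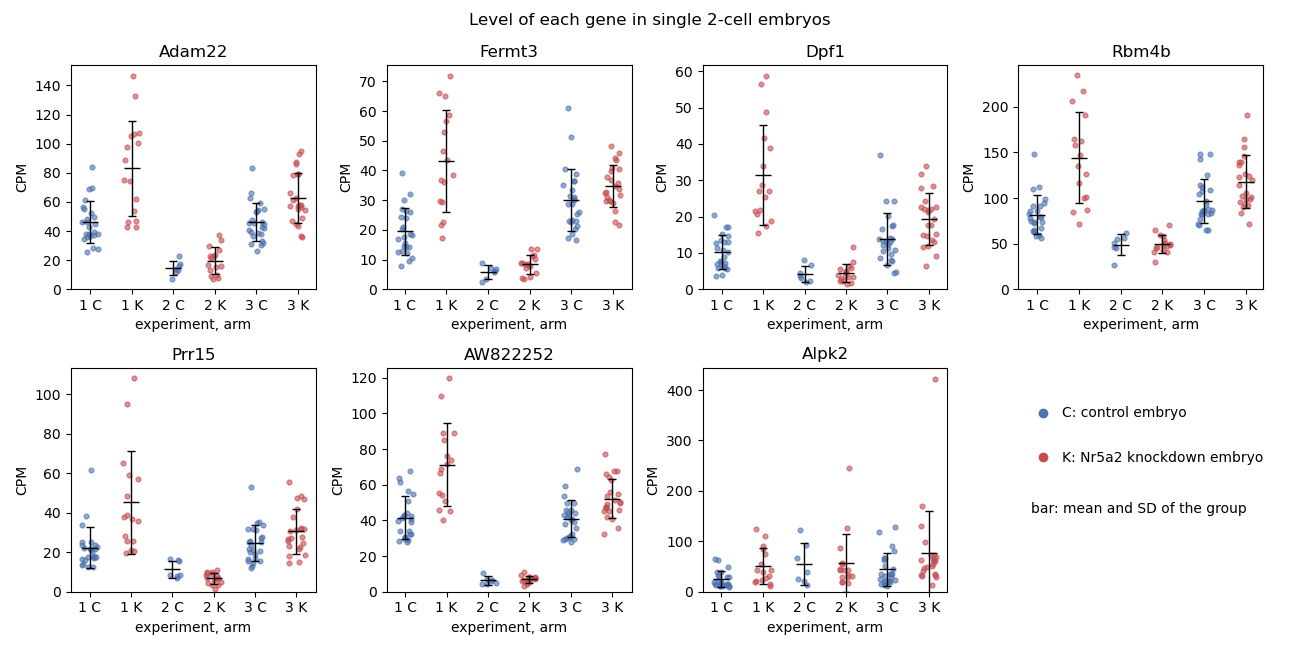
Level of each of the 7 genes in CPM (vertical axis, linear from 0) in every embryo of experiments 1 to 3, control (C, blue) and Nr5a2 knockdown (K, red), with the mean and SD of each group as a bar. Dpf1 in experiment 1 has 13 of 16 knockdown embryos above the highest control. The control and knockdown means of AW822252 are 6.31 and 7.04 CPM in experiment 2 and 41.6 and 71.4 CPM in experiment 1.

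The order of the 6 groups was alike in 6 genes. For all but Alpk2 the highest mean was that of knockdown embryos of experiment 1, next came knockdown embryos of experiment 3, and both groups of experiment 2 were lowest. The gap between the highest and the next group was larger than the pooled SD of the pair only for Dpf1 (12.1 against 11.0 CPM) and AW822252 (19.2 against 18.1 CPM). The step down from the lowest group of experiments 1 and 3 to the higher group of experiment 2 exceeded the SD for each of those 6 genes, and was widest for AW822252 (34.0 against 7.33 CPM). For Alpk2 no neighbouring groups differed by more than their SD.

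Across the genes tested, 119 (0.695%) passed an adjusted p of 0.05 in experiment 1, 104 of them higher (0.608%), by edgeR's quasi-likelihood test with Benjamini-Hochberg adjustment. The 6 members other than Alpk2 were among these, and since this contrast chose them nothing is read from that count. In experiment 2 edgeR called no gene (0%), DESeq2 called 1, and 723 had an unadjusted p under 0.05 in edgeR. In experiment 3 edgeR called 16 genes (0.0935%). With all embryos in one contrast 142 genes passed (0.83%), 76 of them higher (0.444%). The excess of the response in experiment 1 over the mean of experiments 2 and 3 passed for 8 genes (0.0468%), all with a positive excess. Dpf1 and Prr15 were among them, and since this contrast too chose the members nothing is read from it. The median log2 fold change of the 7 genes was 1.02, 0.09 and 0.35 in experiments 1, 2 and 3, beside 0.02, -0.01 and 0.04 over all genes. The 7 were not the most strongly raised genes: 114 genes had a larger fold change than Dpf1 in experiment 1 and 886 a larger one than AW822252, including genes with few counts.

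**Figure D2:**
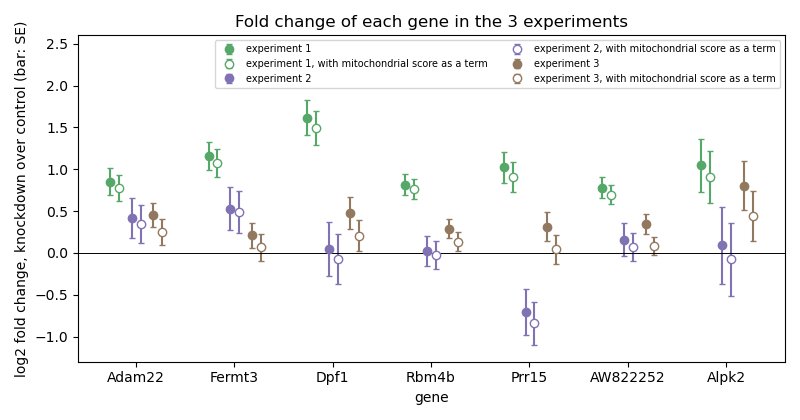
Log2 fold change of knockdown over control (vertical axis) for each gene in experiments 1 to 3, with SE bars. Filled points are from the fit without, and open points from the fit with, the embryo's mitochondrial transcript score as a further term. Every gene is highest in experiment 1, and Prr15 is below 0 in experiment 2.

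The sum over transcripts hides which RNA was counted. For each gene 1 transcript model held most of the estimated counts, from 82.9% for Fermt3 to 99.9% for AW822252. Only for Dpf1 and Prr15 was it a protein-coding model that starts near the RefSeq start. For Adam22 it was a protein-coding model of 1601 bases and 9 exons that begins 247065 bases inside the gene, with 90.1% of the counts. For Fermt3 it was a single-exon model of 2947 bases, and for Rbm4b a model of 4194 bases with 88.8% of the counts, both annotated as retained introns. For Alpk2 (792 bases, 96.9%) and AW822252 (416 bases) it was a processed transcript, a class without an annotated reading frame. The assignment of reads to models is the authors' kallisto estimate.

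In experiment 1 the difference between arms lay in these main transcripts. The retained-intron model of Fermt3 was at 14.1 ± 6.39 CPM in control and 38.8 ± 17.4 CPM in knockdown embryos (SD, n = 24 and 16), while its coding transcript was at 4.78 ± 4.32 and 4.40 ± 2.92 CPM. For Rbm4b the main model went from 71.5 ± 19.5 to 134 ± 50.8 CPM and all other models together from 10.4 ± 5.11 to 10.1 ± 5.74 CPM. For Adam22 the internal model went from 41.8 ± 13.3 to 78.7 ± 32.2 CPM and the others from 4.12 ± 3.62 to 4.34 ± 1.79 CPM. The Dpf1 coding model went from 9.04 ± 4.12 to 30.1 ± 12.9 CPM, and its other models from 1.19 ± 1.52 to 1.24 ± 1.34 CPM. The Alpk2 processed transcript went from 22.8 ± 15.2 to 50.0 ± 35.2 CPM, and its most counted coding model from 1.61 ± 1.76 to 0.408 ± 0.642 CPM.

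In experiment 2 the split was different for Fermt3 and Dpf1. The Fermt3 main model was at 2.74 ± 2.11 CPM (SD, n = 7) in control and 1.98 ± 1.25 CPM (n = 16) in knockdown embryos, and the other models were at 3.07 ± 2.34 and 6.40 ± 3.04 CPM. The higher mean of Fermt3 in knockdown embryos of that experiment was therefore in the other models. For Dpf1 the main model was at 1.44 ± 1.13 and 1.85 ± 1.53 CPM, below the other models at 2.88 ± 1.70 and 2.61 ± 2.42 CPM.

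**Figure D3:**
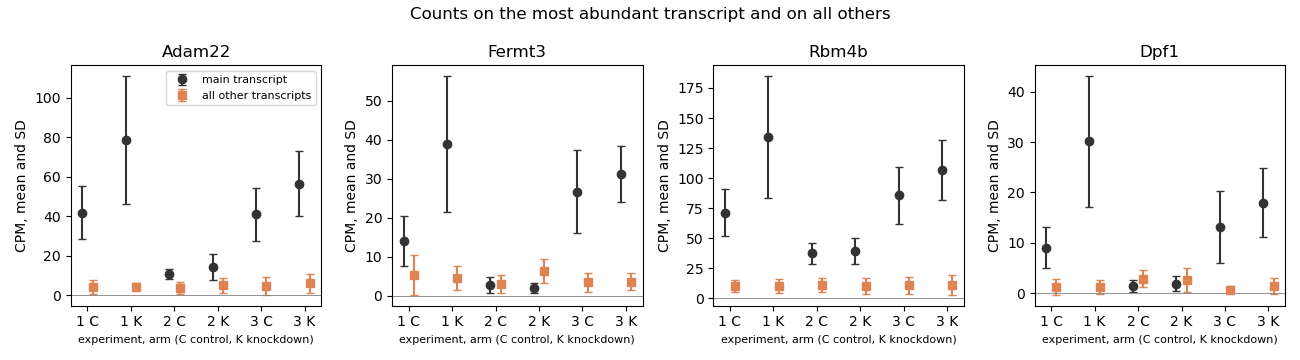
Mean and SD of CPM (vertical axis) on the most counted transcript (black circles) and on all other transcripts together (orange squares) of Adam22, Fermt3, Rbm4b and Dpf1, by experiment and arm (C control, K knockdown). In experiment 1 the main transcript of Fermt3 is at 14.1 CPM in control and 38.8 CPM in knockdown embryos, and its other transcripts are at 5.39 and 4.50 CPM.

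Per kilobase of transcript model and over all embryos, the main transcripts ranked from AW822252 at 97.8 CPM per kb and Alpk2 at 61.5 through Adam22 at 27.6, Rbm4b at 20.1 and Prr15 at 16.4 to Fermt3 at 7.31 and Dpf1 at 5.78 CPM per kb. The order was not the same in every group: in experiment 2 Alpk2, at 67.1 in control and 69.9 in knockdown embryos, lay above AW822252, at 15.1 and 16.6 CPM per kb. In the authors' deposited table, which compares all embryos, the log2 fold changes of the main transcripts were 0.80 for Alpk2, 0.59 for Adam22, 0.50 for Dpf1, 0.44 for Rbm4b, 0.43 for AW822252, 0.32 for Prr15 and -0.02 for Fermt3. The test statistic in that table has the opposite sign to the fold change, and the direction was read from its Nr5a2 rows.

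Embryos of a group also differed from each other. The genes were chosen by group means, which the following measure removes. With group means removed from log2 CPM, all 21 pairs of the 7 genes had a positive Pearson's r over the embryos of all 6 groups. The values ran from 0.07 for Fermt3 with Alpk2 to 0.72 for Adam22 with AW822252, with a median of 0.49, while the median r of the 7 genes with all other genes was 0.02. All points of a pair share the library, its depth and its scaling. Adam22, Rbm4b, Prr15 and AW822252 had the highest values with each other, all at 0.68 or above. In experiment 1, knockdown embryos 10 and 14 were among the 3 highest of 16 for all 7 genes, and embryos 10 and 14 had 4.21 and 3.61 M counts, near the group's median of 4.21 M. Their 2-cell scores, described below, were 7.44 and 6.98 against a group mean of 5.91, and their mitochondrial scores 12.6 and 11.9 against 12.05. Embryo 13 had the highest scores of all 16, 7.61 and 12.8, and was among the 3 highest for 1 gene only. The part of these measures in the rank of the 2 embryos was not tested.

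**Figure D4:**
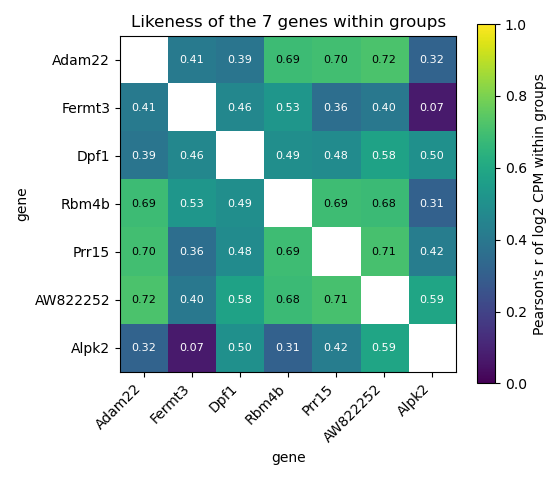
Pearson's r of log2 CPM within groups (colour and number) for each pair of the 7 genes over all embryos. The block of Adam22, Rbm4b, Prr15 and AW822252 stands out at 0.68 to 0.72, and Fermt3 with Alpk2 is lowest at 0.07.

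The genes most like them in the same measure were partly shared. Dock10 had an r of 0.87 with AW822252, 0.82 with Rbm4b, 0.80 with Adam22 and 0.56 with Dpf1. Pecam1, an adhesion molecule of platelets and endothelium, had an r of 0.82 with Rbm4b, 0.80 with Adam22 and 0.59 with Fermt3. Prr15 was closest to Lipe, the hormone-sensitive lipase, and Nras, a small GTPase, both at 0.75. Alpk2 stood apart, with Snf8, a subunit of the ESCRT-II sorting complex, at 0.84 and Pola2, a DNA polymerase alpha subunit, at 0.82. For AW822252 the next gene was Bhlhe41, a transcriptional repressor of the circadian clock, at 0.81, for Fermt3 the first was Acnat1 at 0.66, and for Dpf1 it was Zfp329 at 0.57.

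The same within-group differences allowed tests from which the differences between arms are removed. Slopes were fitted for every gene on 4 properties of the embryo, each centred within its group, and tested with edgeR's quasi-likelihood test and adjustment over all genes. A slope is the log2 change of the gene per log2 unit of the property. The properties were the level of Nr5a2 and the mean log2 CPM of 27 measured 2-cell transcripts such as Zscan4 genes, of the 13 protein-coding mitochondrial transcripts and of 45 transcripts stored in the oocyte.

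Most of the 7 genes were higher in embryos with a higher mitochondrial score. Among all genes 2.32% passed, 1.98% with a positive slope, and 6 of the 7 members passed with a positive slope. AW822252 had a slope of 0.61 (SE 0.09, adjusted p 1.40e-05 by edgeR), Prr15 0.64 (SE 0.15, adjusted p 0.00680) and Dpf1 0.70 (SE 0.17, adjusted p 0.00934). Rbm4b had 0.35 (SE 0.10, adjusted p 0.0331), Alpk2 0.94 (SE 0.27, adjusted p 0.0400) and Adam22 0.46 (SE 0.13, adjusted p 0.0407), while Fermt3 had 0.35 (SE 0.14) with an adjusted p of 0.176 by edgeR. The slope was positive for all 7 in controls alone and in knockdown embryos alone. In controls alone AW822252 was the only call, beside positive calls for 0.14% of all genes. In knockdown embryos alone none passed by edgeR (0.152% of all genes). There 5 of 7 had an unadjusted p under 0.05, beside 1503 of 17097 genes. Without experiment 1 none passed (0.0468% of all genes), with 3 of 7 at an unadjusted p under 0.05, beside 891 of 17097 genes. Without the 2 embryos farthest from the median score, AW822252, Dpf1 and Prr15 passed, beside positive calls for 1.39% of all genes. With depth (the log2 library total) as a further term 3 of 7 passed, beside positive calls for 1% of all genes. Adam22, Rbm4b and Alpk2 lost their calls there. In experiment 1 alone 3 passed, with scaling to library totals 4, and with DESeq2 size factors in edgeR all 7. In these settings 1.01%, 3.42% and 7.73% of all genes passed with a positive slope, so the background moved too.

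The mitochondrial score was higher in knockdown embryos of experiment 3 and differed by less than 1 SD between arms in experiments 1 and 2. The slopes remove these group means, whereas the contrasts that chose the genes keep any difference of the score between arms. Its mean was 11.89 ± 0.43 in control and 12.05 ± 0.43 in knockdown embryos of experiment 1 (SD, log2 CPM, n = 24 and 16), 10.95 ± 0.29 and 11.07 ± 0.33 in experiment 2 (n = 7 and 16), and 11.57 ± 0.28 and 12.01 ± 0.36 in experiment 3 (n = 25 and 23). Of the 13 mitochondrial genes 6 were called higher over all embryos (mt-Nd2 most clearly, log2 fold change 0.44, SE 0.08, adjusted p 8.44e-04 by edgeR), 5 in experiment 3 and none in experiments 1 and 2. In experiment 1, 3 of the 13 had an unadjusted p under 0.05, all higher, and in experiment 2 none did. DESeq2 called none of them in experiment 1. With the score as a further term the log2 fold changes in experiment 1 were 0.77 for Adam22, 1.07 for Fermt3, 1.50 for Dpf1, 0.77 for Rbm4b, 0.90 for Prr15, 0.70 for AW822252 and 0.90 for Alpk2. In experiment 3 they were 0.25, 0.07, 0.21, 0.13, 0.04, 0.09 and 0.44 in the same order, against 0.21 to 0.80 without the term. Experiment 2 gave -0.84 to 0.49 with the term and -0.70 to 0.53 without it. The range in experiment 1 was 0.70 to 1.50 with the term and 0.78 to 1.62 without it. The term was added after seeing the data, and the part of the score in the members' rise was not tested.

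The 2-cell score gave 5 positive calls among the 7, where 49.9% of all genes passed and 26.2% with a positive slope. Alpk2 had the steepest slope, 0.52 (SE 0.08, adjusted p 1.04e-08 by edgeR), followed by Prr15 at 0.28 (SE 0.05, adjusted p 3.43e-06). Adam22 had 0.15 (adjusted p 0.00797), AW822252 0.13 (adjusted p 0.00205) and Rbm4b 0.10 (adjusted p 0.0181). Dpf1, at 0.12 (adjusted p 0.118), and Fermt3, at 0.02 (adjusted p 0.789), did not pass. In each of the following subsets of embryos fewer of the 7 passed than in all embryos. In controls alone 4 of the 7 passed, Adam22 losing its call, beside positive calls for 18.6% of all genes. In knockdown embryos alone 2 passed (Prr15 and Alpk2), beside 11.3% of all genes. In experiment 1 alone 3 passed (14.6% of all genes), and without experiment 1 there were 2 (14.4%). In experiments 2 and 3 alone 1 each passed, beside 7.08% and 9.26% of all genes, and nothing is read from 1 call. The score itself was 5.97 ± 0.88 and 5.91 ± 0.93 in control and knockdown embryos of experiment 1.

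The Nr5a2 level of an embryo gave 1 call among the 7 genes, where 22.6% of all genes passed, so nothing is read from that count. Alpk2 had a slope of 0.47 (SE 0.16, adjusted p 0.0292 by edgeR), so embryos with more Nr5a2 than their group had more Alpk2, the opposite of the direction between arms. Alpk2 did not pass once the 2 embryos with the most extreme Nr5a2 were left out, with an adjusted p of 0.085 by edgeR. It did not pass in controls alone or in knockdown embryos alone (adjusted p 0.229 and 0.218 by edgeR). Nor did it in experiment 1, 2 or 3 alone (adjusted p 0.911, 0.368 and 0.112 by edgeR). In experiment 1 alone 1 of the 7 slopes was positive and the lowest was -0.33. None of the 7 passed there, where 1 of 17109 genes did, so nothing is read from that. Over all embryos the slopes of the other 6 lay between -0.04 and 0.07 and none passed, where 22.6% of all genes did and 9.66% did so with a positive slope. With the oocyte score none of the 7 passed by edgeR and none had an unadjusted p under 0.05, where 53.8% of all genes passed, and their slopes ran from -0.23 to 0.16. With DESeq2 size factors in edgeR Rbm4b and Prr15 passed, both with a positive slope, where 32% of all genes did.

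**Figure D5:**
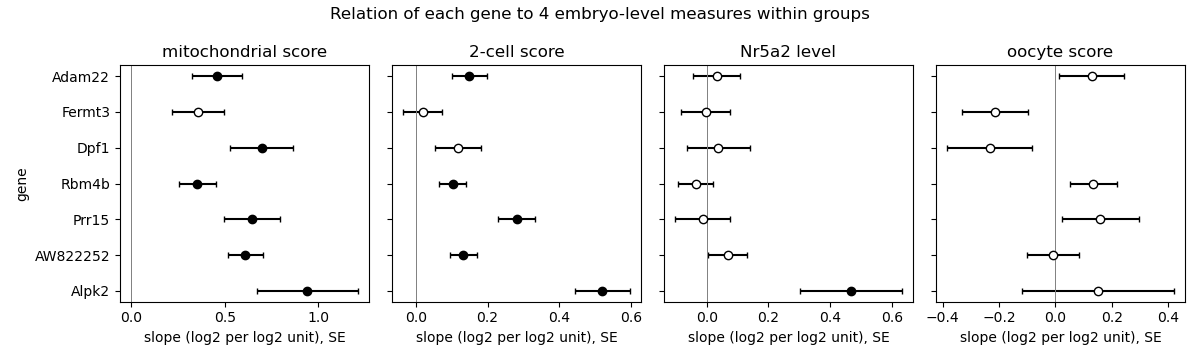
Slope of each gene (horizontal axis, log2 per log2 unit, bars SE) on the mitochondrial score, the 2-cell score, the Nr5a2 level and the oocyte score, within groups. Filled points passed an adjusted p of 0.05. On the mitochondrial score 6 genes are filled, and on the Nr5a2 level Alpk2 alone.

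Relatives and partners of the members were called about as often as all genes. Over the 8 lists of relatives and partners, 112 genes other than the members were tested in the contrast of all embryos, none was called higher and 1 was called lower, with 12 at an unadjusted p under 0.05 and the same single call by DESeq2. That is 0.893% of the 112, near the 0.83% of all genes, and no result about relatives is read from it. In experiment 1, 15 of the 112 had an unadjusted p under 0.05, 9 of them higher, beside 1508 of 17110 genes. There 1 of the 112 was called, beside 0.695% of all genes. That gene was Brd9, a bromodomain subunit of the non-canonical BAF complex, whose log2 fold change was -0.61 with an SE of 0.13 (adjusted p 0.00537 by edgeR, with 0.386% of all genes called lower). In experiment 1 it was -0.90 with an SE of 0.22 (adjusted p 0.0156 by edgeR). The paralogues of Dpf1 had log2 fold changes in experiment 1 of -0.31 (SE 0.23) for Dpf2 and 0.39 (SE 0.13) for Dpf3, neither past the threshold. The other 26 BAF subunits tested were not called.

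For ADAM22, none of 10 partners and inactive relatives was called, Dlg1, a scaffold protein, having the smallest p (log2 fold change 0.36, SE 0.14, adjusted p 0.312 by edgeR). None of 9 catalytic ADAM proteases was called, with Adam17 at -0.27 (adjusted p 0.222 by edgeR). For kindlin-3, none of 17 genes of integrin activation was called (Tln2, a talin, at 0.23) and none of 18 integrin subunits (Itgb7 at 0.64). None of 24 splicing regulators was called (Tra2a at 0.27), and none of 6 alpha-kinases and EF2 (Alpk1 at -1.06, with a mean of 1.20 CPM). Prr15l, the paralogue of Prr15, had a log2 fold change of 0.07 (SE 0.17).

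Of 16 tested genes that overlap or flank the 7 on the chromosome, none was called over all embryos or in experiment 1. DESeq2 called none in either. As edgeR called 0.83% and 0.695% of all genes, nothing is read from that count. None of the 16 had an unadjusted p under 0.05 over all embryos, where 1495 of 17110 genes did. In experiment 1, where 1508 genes did, 2 of the 16 had such a p, both next to Adam22. They were Sri, a calcium-binding protein gene 2973 bases away, at 0.79 on the log2 scale (SE 0.40, adjusted p 0.561 by edgeR), and Dbf4, which activates a replication kinase, with 0.33 (SE 0.15, adjusted p 0.457). Trpt1, which overlaps Fermt3 on the opposite strand, had a log2 fold change of 0.08 (SE 0.31) in experiment 1. Stip1, a co-chaperone gene 1233 bases from Fermt3, had 0.15 (SE 0.19). Gm21992, which overlaps Rbm4b, had -0.14 (SE 0.20), and because strand was not recorded its reads cannot be told apart from those of Rbm4b where they overlap.

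Several of the 7 genes are known from other tissues, so markers of those tissues were counted. Of 11 blood, 8 neuronal, 7 cumulus and granulosa, and 6 spermatogenic markers tested, none was called over all embryos by edgeR or DESeq2. Of all genes 0.83% were called by edgeR, so nothing is read from that. An unadjusted p under 0.05 was seen for 2 blood markers, none of the others and 1495 of 17110 genes. In experiment 1 the summed blood markers ran from 105 to 696 CPM in control and from 79.8 to 544 CPM in knockdown embryos. The summed neuronal markers ran from 116 to 233 and from 55.4 to 275 CPM, the summed cumulus and granulosa markers from 68.4 to 193 and from 43.3 to 292 CPM, and the summed spermatogenic markers from 128 to 289 and from 116 to 293 CPM. These ranges overlapped throughout, but the blood sum was mostly Gata1 (mean 228 CPM over all embryos) and the cumulus and granulosa sum mostly Amhr2 (89.4 CPM), so they hide the rarer markers. In experiment 1 none of the markers was called by edgeR or DESeq2, beside 0.695% of all genes in edgeR. There 3 blood markers and 1 cumulus and granulosa marker had an unadjusted p under 0.05, all 4 higher, beside 1508 of 17110 genes. Cd74, a chaperone of MHC class II, was at means of 5.23 CPM in control and 12.6 CPM in knockdown embryos (log2 fold change 1.28, SE 0.50, adjusted p 0.354 by edgeR). The integrin subunits Itgal and Itgam had 0.94 (SE 0.41) and 0.91 (SE 0.38), with adjusted p of 0.44 and 0.397. Krt8, an epithelial keratin, was at 13.1 and 33.8 CPM (1.38, SE 0.49, adjusted p 0.237 by edgeR). These 4 moved in the members' direction. The median log2 fold change in experiment 1 was 0.03 for the blood and -0.12 for the cumulus and granulosa markers. It was 0.11 for the neuronal and 0.40 for the spermatogenic markers, beside 0.02 over all genes. The part of other cells in the members' rise was not tested.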

How the data were processed

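Polyadenylated RNA of single embryos in 6 groups was analysed. Per the labels' protocols, libraries were made with SmartSeq2 and oligo dT priming. Per the submitters' processing notes, the tools were kallisto 0.46.1, Trim Galore 0.6.2, DESeq2 1.32.0, bcl2fastq and R 3.5.1, and the builds named are mm10 and hg19. The authors deposited estimated counts per transcript (expected counts, not normalized) in 119358 rows. A further deposited table holds batch-adjusted values, used as a score in an alternative only. The authors' deposited comparison table gives log2 fold changes and adjusted p-values.

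Counts were summed by symbol (2164 rows without one, a median of 1.018% of the counts, were left out), rounded, filtered with filterByExpr by the 6 groups and scaled by TMM in edgeR 4.0.16 (limma 3.58.1, R 4.3.3). Quasi-likelihood tests with Benjamini-Hochberg adjustment at 0.05 used 105 residual degrees of freedom in the group fit. Log2 CPM used a prior count of 2. No embryo was counted more than once (highest r between embryos 0.958), and the scripts were tested on simulated counts. The members and the lists were chosen with earlier results of these data known. Named genes are the members, Nr5a2, the 2 genes most alike to each member, the called or smallest-p gene of each list and the nearest neighbours; other relatives were added after their values were seen. DESeq2 1.42.0 and other alternatives are described at the end. Depth bounds counting error only, since amplified reads are not independent molecules.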

Additional observations from a re-analysis of the deposited data

How the results depend on the processing

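Of 73 alternative counts of called genes, 32 stayed within 1.5 times the count first given and 41 did not. Of the alternative fold changes of the members, given without a test, all moved by less than the SD between embryos except 2. Both were of Fermt3 in experiment 2. They were -0.47 on its most counted transcript and -0.09 in the authors' batch-adjusted table (scaled to CPM, log2 of the value plus 1). The cause was not tested. This SD is a wide limit, for Prr15 in experiment 3 0.52 beside an SE of 0.17. The change of Prr15 there from 0.31 to 0.04 with the mitochondrial score as a term lies within it.

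The replicate numbers in the labels are shared by the arms, and whether they pair the embryos was not settled. Of 46 pairs 20 had r over 0.1 (median 0.0574, -0.552 to 0.558), and 11 of 92 embryos correlated best with their own number. The values to be had without pairing were not computed. With the number as a replicate block, 18 genes were called over all embryos, 21 in experiment 1, 5 in experiment 3 and 1 for the excess of experiment 1. Without the filter on low counts, which tests more genes, the counts were 966 over all embryos, 660, 13 and 523 in experiments 1, 2 and 3, and 182 for the excess. DESeq2 gave 220 over all embryos, 220, 1 and 35 in the 3 experiments. The count over all embryos was 19 without experiment 1 and 35 without experiment 3. With the mitochondrial score as a term, an alternative chosen after seeing the data, it was 34, with 5 in experiment 3 and 32 for the excess. Library totals alone gave 16 for the excess. Fewer embryos enter the subset fits below.

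For the relation to Nr5a2, 3874 genes passed, and 1160 in control embryos, 1721 in knockdown embryos, 1 in experiment 1, 16 in experiment 2, 1960 in experiment 3 and 2531 without the 2 farthest embryos. For the 2-cell score 8523 passed, and 4617 in knockdown embryos, 5284, 2557 and 3718 in experiments 1, 2 and 3. For the mitochondrial score 397 passed, and 1507 with DESeq2 size factors, 913 with library totals, 190 with depth as a term, 29 in control embryos, 26 in knockdown embryos, 182, 3 and 3 in experiments 1, 2 and 3, and 11 without experiment 1. For the oocyte score 9186 passed, and 3863 in control embryos, 3618 in experiment 1 and 1652 in experiment 2. The experiment 2, experiment 3 and farthest-embryo fits were chosen after seeing the data. The subsets also differ in the number of embryos, and no cause of these shifts was tested.

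In experiment 2 alone the mitochondrial slope turned to -0.058 for Rbm4b and -0.024 for Prr15. The 2-cell slope of Fermt3, not called, turned to -0.018 in knockdown embryos, -0.039 without experiment 1 and -0.25 in experiment 2 alone. Of the other alternative slopes on the mitochondrial and 2-cell scores and of Alpk2 on Nr5a2, 83 kept their side of the threshold, 61 lost the call and 1 gained it. Slopes not in this tally, those on the oocyte score and of the other 6 genes on Nr5a2, changed sign between settings: the Nr5a2 slopes were positive for 4 of 7 genes and for 1 of 7 in experiment 1. Leaving out 1 embryo at a time kept every log2 ratio of mean CPM in experiment 1 between 0.71 and 1.68. A depth of 1.95 to 21.1 M counts limits rare transcripts most.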
